A study of Mus musculus with 4 samples.

Results

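Transfer RNA (tRNA) gene loci were taken from a RefSeq gene table of the mouse assembly GRCm38.p6 (mm10), as every gene of the tRNA type with 1 kb on each side. The table holds 430 such genes among 49997 genes of all types. Of these, 22 are mitochondrial, 5 nuclear genes have table positions within the first 3 Mb of chromosome 11, a gap in the assembled sequence, that were not used, and 403 nuclear genes lie at a usable position. A locus was classed as shared, knockout-only, control-only or neither according to whether its window overlapped, by at least 1 bp, a peak of the Znhit1 knockout list, of the control list, of both or of none. The classes were thus chosen by the peak positions of these same lists, and every count by class is a description without a test.

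Chromatin accessibility had been profiled by ATAC-seq, an assay that inserts sequencing adapters into exposed DNA with Tn5 transposase, in mouse testis cells labelled pachytene spermatocytes, the meiotic cells whose homologous chromosomes are synapsed. The labels name 4 libraries, 2 of the genotype Znhit1_KO and 2 of the genotype CTRL, each with P35 in its title, and the study asked how ZNHIT1 bears on accessibility. ZNHIT1 is a subunit of the SRCAP complex, which deposits the histone variant H2A.Z. The labels used here give no strain, no description of the deleted allele and no driver of the deletion, so nothing further can be said of either group as a model. Peak lists were analysed for the first knockout library (21004 separate peaks) and the first control library (15376 separate peaks). Each list gives the start and end of a peak and no height. The labels state a minimum of 30000000 reads per sample, but the depth behind each list is unknown. Since each genotype has 1 list, differences carry no replicate check and no p-value. In a bulk library, fewer cells with an open site and a less open site in each cell cannot be told apart.

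All 10 pachytene marker genes examined, among them Sycp1 and Sycp3 of the synaptonemal complex, were marked by a gene-end peak in both lists. Markers of Sertoli cells (0 of 5), Leydig cells (0 of 4), spermatogonia (0 of 4) and spermatids (0 of 4) had none in either list, and of the 2 peritubular markers Acta2 had a peak in the knockout list alone. Acta2 encodes smooth muscle actin. Over all 21775 protein-coding genes, 28.7% were in both lists by peaks within 1 kb of either end, and 12357 were in neither. Lacking a peak is thus common, so absence at these few markers cannot show that other cell types were missing.

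Nuclear tRNA genes are transcribed by RNA polymerase III. The factor TFIIIC binds promoter elements that lie inside the gene, the A box and the B box, and recruits TFIIIB upstream of the start, while a run of T just past the gene ends transcription. Each genome carries many near-identical copies of tRNA genes, often in clusters, and the copies that read the same amino acid form an isotype, told apart further by their anticodon.

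No tRNA gene had a sequence entry of its own, but 4 lay wholly inside the 300-base promoter window that RefSeq (GRCm38.p6) gives for a neighbouring gene. They are shown because they carry the internal promoter within the very sequence whose accessibility is classed below, and because they cover loci found in both lists, in the knockout list alone and in neither. Each is written 5′ to 3′ on the minus strand, with the tRNA gene in capitals.
n-TRtcg5, arginine, peak in both lists, in the promoter window of Polg, chr7:79466224-79466523: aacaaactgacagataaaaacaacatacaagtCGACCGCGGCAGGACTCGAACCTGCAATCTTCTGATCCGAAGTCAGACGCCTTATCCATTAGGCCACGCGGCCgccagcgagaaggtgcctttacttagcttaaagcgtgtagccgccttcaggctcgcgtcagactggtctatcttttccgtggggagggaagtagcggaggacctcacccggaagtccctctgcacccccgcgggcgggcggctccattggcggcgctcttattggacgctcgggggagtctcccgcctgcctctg
n-TTagt9, threonine, peak in the knockout list alone, in the promoter window of Gm38989, chr7:35234765-35235064: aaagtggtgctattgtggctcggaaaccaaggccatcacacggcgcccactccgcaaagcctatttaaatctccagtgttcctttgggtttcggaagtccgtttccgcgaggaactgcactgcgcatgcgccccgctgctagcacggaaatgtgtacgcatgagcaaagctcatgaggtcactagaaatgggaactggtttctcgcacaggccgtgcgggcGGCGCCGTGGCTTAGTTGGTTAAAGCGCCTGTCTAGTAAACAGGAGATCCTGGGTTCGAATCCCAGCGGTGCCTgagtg
n-TVcac9, valine, peak in the knockout list alone, in the promoter window of Gm46404, chr13:23445922-23446221: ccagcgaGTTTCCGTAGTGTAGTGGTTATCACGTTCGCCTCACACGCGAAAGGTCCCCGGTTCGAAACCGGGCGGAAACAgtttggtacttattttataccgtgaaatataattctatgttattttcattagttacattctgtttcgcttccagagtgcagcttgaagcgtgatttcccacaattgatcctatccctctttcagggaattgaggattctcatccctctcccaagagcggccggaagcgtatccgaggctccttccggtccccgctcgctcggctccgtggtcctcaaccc
n-TAagc16, alanine, peak in neither list, in the promoter window of Gm32420, chr13:21222490-21222789: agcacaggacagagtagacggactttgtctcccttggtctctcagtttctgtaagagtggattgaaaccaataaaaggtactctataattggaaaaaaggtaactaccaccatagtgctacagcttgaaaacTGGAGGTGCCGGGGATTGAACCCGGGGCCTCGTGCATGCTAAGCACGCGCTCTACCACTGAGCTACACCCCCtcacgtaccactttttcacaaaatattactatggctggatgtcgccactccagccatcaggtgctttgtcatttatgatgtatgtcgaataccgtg

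All 4 capital stretches held the letters GGTTCNANNCC, searched on both strands as a form of the B box and overlapping no other motif searched. The match was GGTTCGAATCC in n-TTagt9 and GGTTCGAAACC in n-TVcac9, on the strand printed, and GGTTCGAGTCC in n-TRtcg5 and GGTTCAATCCC in n-TAagc16, on the opposite strand. It began at base 51 to 53 of the gene in all 4, counted along the strand of the match. Of all 32851 promoter windows of this length, 261 (0.794%) held these letters, as did 7 of the 10 windows that overlapped a tRNA gene. A run of TTTT began at base 13 past the gene in n-TVcac9 and n-TRtcg5 and at base 2 past it in n-TAagc16, read on the strand of the B box, whereas the window of n-TTagt9 ends 5 bases past its gene. The B box letters were thus present in loci of 3 classes, and their presence is a description of the sequence, not of a factor's binding.

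A peak was found in at least 1 list at 130 of the 403 placed tRNA genes (32.3%). The knockout list covered 124 of them (30.8%, Wilson 95% interval 26.5 to 35.4) and the control list 76 (18.9%, 15.3 to 23.0). By class, 70 genes (17.4%) were shared by both lists, 54 (13.4%) were knockout-only, 6 (1.49%) were control-only and 273 were in neither. The intervals cover counting error only, and because neighbouring genes can share a peak the genes are not independent. As background measured the same way, 7.29% of 3555 other small RNA genes (snoRNA, snRNA and miRNA) had a peak in the knockout list and 5.63% in the control list (3.91% shared, 3.38% knockout-only and 1.72% control-only). Genome tiles of 2072 bp, the length of the median tRNA window, gave 1.95% and 1.45% (0.685% shared, 1.26% knockout-only and 0.767% control-only). The tRNA loci thus stood above both backgrounds in each list and class, except for the control-only class, which lay between the share of small RNA genes and that of tiles. Neither list holds a peak on the mitochondrial chromosome, so its 22 tRNA genes have none.

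**Figure D1:**
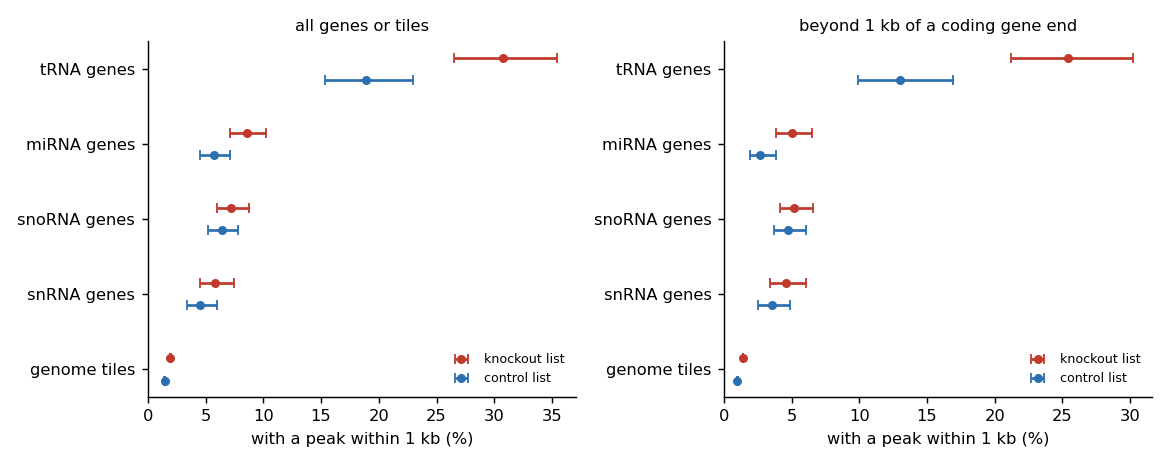
Share of loci with a peak within 1 kb (horizontal axis, percent) for tRNA genes, miRNA, snoRNA and snRNA genes and genome tiles, in the knockout list (red) and the control list (blue). Points are shares, bars are Wilson 95% intervals, and the right panel leaves out loci within 1 kb of a coding gene end. The tRNA genes lie at 30.8% and 18.9% on the left and at 25.4% and 13% on the right, to the right of every other set.

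Part of this share belonged to tRNA genes that sit beside protein-coding genes. Within 1 kb of an end of a coding gene lay 49 tRNA genes, of which 30 were shared, 4 knockout-only, 0 control-only and 15 without a peak. That is 69.4% (55.5 to 80.5) for the knockout list and 61.2% (47.2 to 73.6) for the control list. Other small RNA genes within 1 kb of a coding gene end gave 36.5% and 29.7%, and tiles there 19.2% and 16.3%. As background over coding genes, 38.6% of all 21775 carried a knockout peak within 1 kb of either end and 33.4% a control peak. By class these were 28.7% shared, 9.86% knockout-only and 4.68% control-only. A peak in such a window can belong to the coding gene's promoter, to the tRNA gene or to both, and the lists cannot separate these.

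The 354 tRNA genes farther than 1 kb from any coding gene end also stood above background. Of these, 40 were shared, 50 knockout-only, 6 control-only and 258 without a peak. The knockout list covered 25.4% (21.2 to 30.2) and the control list 13% (9.89 to 16.9). The 3292 other small RNA genes at this distance gave 4.95% and 3.71% (2.0% shared, 2.95% knockout-only and 1.7% control-only). Tiles at this distance gave 1.4% and 0.984% (0.282% shared, 1.12% knockout-only and 0.702% control-only). Of the 50 knockout-only genes, 49 were also outside every coding gene. Distance was taken only to the listed ends of coding genes, so this set still holds tRNA genes inside promoter windows. Among them are n-TRtcg5, at 1420 bp but in a promoter window of Polg, and the knockout-only n-TTagt9 and n-TVcac9. Their peaks can belong to these promoters too.

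Coverage by peaks was highest at the tRNA gene itself and fell off within 1 kb. Away from coding gene ends, 14.1% of tRNA gene midpoints lay inside a knockout peak, as did 9.75% of positions 100 bp away, 4.52% at 500 bp, 2.12% at 1000 bp and 0.989% at 2000 bp. In the control list the values were 7.34%, 6.36%, 3.67%, 1.69% and 0.424%. Other small RNA genes away from coding gene ends were flat by comparison, at 1.25% at the midpoint and 0.942% at 1000 bp in the knockout list, and at 0.638% and 0.851% in the control list. The maximum over the gene was therefore seen in both genotypes. For the 49 genes beside coding gene ends, 44.9% of midpoints lay inside a knockout peak and 38.8% inside a control peak.

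**Figure D2:**
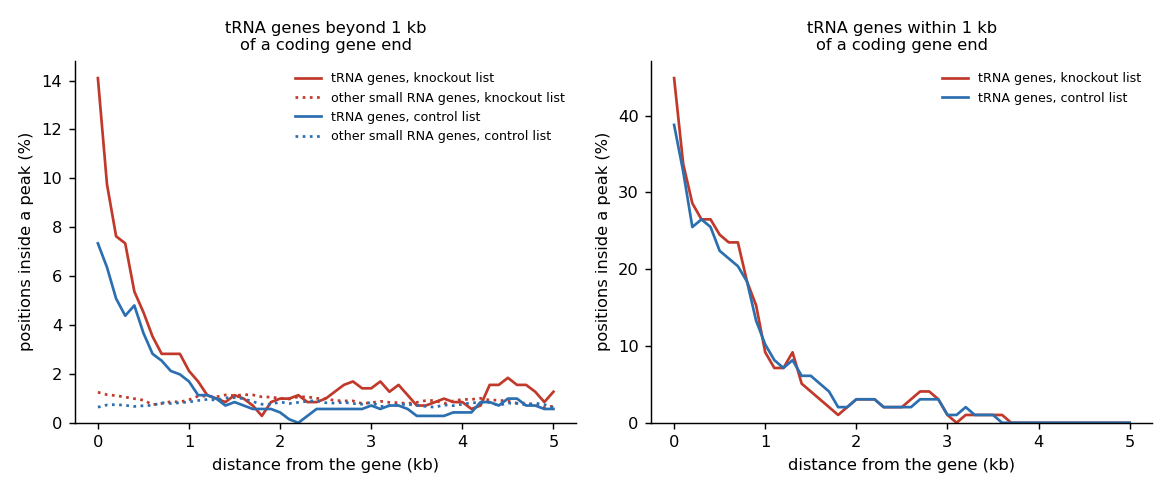
Percent of positions inside a peak (vertical axis) against distance from the gene midpoint on either side (horizontal axis, kb), for the knockout list (red) and the control list (blue). Solid lines are tRNA genes beyond 1 kb (left, 354 genes) or within 1 kb (right, 49 genes) of a coding gene end, and dotted lines are other small RNA genes beyond 1 kb. On the left the tRNA curves start at 14.1% and 7.34% and reach the dotted curves just past 1 kb.

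Counted by gene body alone, with no flank, 40 tRNA genes were shared, 33 knockout-only and 10 control-only, so that 18.1% of gene bodies met a knockout peak and 12.4% a control peak. A peak of at least 1 list touched the tRNA gene itself at 53 of the 70 genes shared by window, at 27 of the 54 knockout-only genes and at 3 of the 6 control-only genes. The other genes had peaks in the flank only.

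Several tRNA genes share a peak, so the distinct peaks were counted too. The knockout list had 87 distinct peaks in tRNA windows (0.414% of the list) and the control list 53 (0.345%). Of these, 64 (73.6%) and 41 (77.4%) touched the body of a tRNA gene, and 29 and 15 lay in the windows of more than 1 gene. Among the knockout peaks, 46 (52.9%) overlapped a control peak, against 32.4% over the whole knockout list, and among the control peaks 46 (86.8%) overlapped a knockout peak, against 44.4% over the whole control list. The other 41 knockout peaks and 7 control peaks met no peak of the opposite list. The overlap depended on position. Of the peaks within 1 kb of a coding gene end, 24 of 28 in the knockout list (85.7%) and 25 of 25 in the control list overlapped. Of those beyond 1 kb, 22 of 59 (37.3%) and 21 of 28 did. Away from coding gene ends the knockout share was thus near the 32.4% of the whole list. The whole lists were not split by this distance.

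Shared peaks at tRNA genes were wide and of like width in the genotypes. Their median width was 716.5 bp in the knockout list and 724.5 bp in the control list, whereas the 41 knockout peaks without a partner had a median of 318 bp and the 7 control peaks one of 448 bp. At 45 sites a single knockout peak met a single control peak, and there the log2 width ratio (knockout over control) had a median of 0.02 and quartiles of -0.29 and 0.36, with 23 sites wider in the knockout and 22 wider in the control. Of the 70 shared genes, 66 had peaks that overlapped between the lists, and at the remaining 4 the lists held different intervals inside the same window.

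The widest peaks lay mostly where a tRNA gene adjoins a coding gene. At n-TYgta9 (tyrosine) and n-TAagc15 (alanine), near Agbl5, which encodes a tubulin deglutamylase, the knockout peak spanned 1599 bp and the control peak 1179 bp. At n-TScga2 (serine), near Smarcc2, a subunit of the SWI/SNF remodellers, it spanned 1544 bp and 888 bp. At n-TEttc4 (glutamate), near Wbp4 and Elf1, it spanned 1485 bp and 1101 bp, at n-TSaga9 (serine, near 2610301B20Rik) 1160 bp and 869 bp, at n-TQctg9 (glutamine, near the endosomal GTPase gene Rab11a) 1151 bp and 1004 bp, at n-TRacg2 (arginine, near Sacm1l) 1049 bp and 978 bp, and at n-TAagc9 (alanine, near Ppp6r3) 1044 bp and 1277 bp. The arginine gene n-TRtcg5, whose sequence in the promoter window of Polg is printed above, lay under a knockout peak of 1253 bp and a control peak of 895 bp. These peaks were found in both genotypes, with the wider one on either side.

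Further sites among the widest of the control list were n-TWcca2 and n-TDgtc16 (tryptophan and aspartate) near Tmpo, with a knockout peak of 919 bp and a control peak of 1179 bp, n-TVaac8 (valine) near Mynn at 686 bp and 1081 bp, and n-TGccc4 (glycine) near Tia1 at 959 bp and 1006 bp. The leucine gene n-TLaag4 lies 180 bp from an end of Polr3e, which encodes a subunit of RNA polymerase III itself, and a knockout peak of 927 bp and a control peak of 1053 bp covered both. A single control peak of 2378 bp on chromosome 1 (171063702 to 171066079) ran over or beside 5 tRNA genes near Fcgr3, where the knockout list had a peak of 938 bp over the same start and a separate peak of 295 bp.

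In the few peaks over tRNA genes beside coding gene ends, the tRNA gene mostly lay near the rim of the peak. Among peaks over the midpoint of exactly 1 tRNA gene, the midpoint lay within 25% of the peak's width from the nearer edge, a span as long on both sides together as the inner part of the peak, at 12 of 14 such genes in the knockout list (85.7%) and 13 of 15 in the control list (86.7%), at a median of 104 bp and 139 bp from the nearer edge. Beyond 1 kb from a coding gene end the counts were 19 of 42 (45.2%) and 9 of 18. Over all distances the shares were 55.4% and 66.7% for tRNA genes and 56.5% and 43.8% for other small RNA genes. The other small RNA genes were not split by distance to coding gene ends. The lists that cover the same gene mostly placed it at the same side: the nearer edge matched at 22 of 26 genes with such a peak in both lists. In this set the peaks of both lists cover the same midpoint and so overlap by selection, which makes a match likely beforehand.

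A wide shared peak also lay far from coding genes. On chromosome 3, 4 tRNA genes within 19627959 to 19629067 (n-TRacg3, n-TYgta1, n-TYgta2 and n-TAagc14, for arginine, tyrosine and alanine) lay more than 15 kb from any coding gene end and sat under 1 knockout peak of 1230 bp (19627845 to 19629074) and 1 control peak of 1202 bp (19627863 to 19629064). All 4 gene bodies overlapped the peak of each list.

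The classes differed in their distance to coding genes. The median distance from the tRNA gene to the nearest coding gene end was 4093.5 bp for shared genes, 8988.5 bp for knockout-only genes, 13302 bp for control-only genes and 17115 bp for genes without a peak, against 11664 bp over all 403. Within 1 kb lay 42.9% of shared genes, 7.41% of knockout-only genes and 5.49% of genes without a peak, against 12.2% over all. Knockout-only loci thus seldom lay beside a coding gene, unlike many of the shared loci.

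Among loci with a peak in 1 list alone, 54 belonged to the knockout and 6 to the control, a ratio of 9.0. Counted by distinct peak the numbers were 41 and 7 (a ratio of 5.86), and counted by cluster of tRNA genes 23 and 4 (5.75). Over the whole lists, peaks without a partner numbered 14197 and 8547, a ratio of 1.66, and for tiles the ratio was 1.64, for other small RNA genes 1.97 and for coding gene ends 2.11. This imbalance depended on which intervals were kept. MACS2 can write an interval several times. When both lists were cut to intervals listed at least 2 times, 29 tRNA genes were knockout-only, 21 control-only (1.38) and 33 shared. This cut left 6091 knockout and 6016 control intervals in the whole lists. The knockout list then had 38 distinct peaks at tRNA genes and the control list 37, and they covered 15.4% and 13.4% of tRNA genes, against 3.8% and 3.09% of other small RNA genes. If the gene also had to lack any interval of the other list, however often listed, the counts were 25 and 2 (12.5). With only intervals of at least 300 bp they were 36 and 15. Without chromosome 13 they were 33 and 6, and without chromosomes 13 and 19 they were 26 and 6. With equal numbers of the widest intervals of each list they were 42 and 8, with 68 shared. With the gene body in place of the window they were 33 and 10, a ratio of 3.3. Other small RNA genes then gave 3.31, so by gene body the tRNA genes had no larger imbalance than other small RNA genes. For the cuts by listing, width or number of intervals, and without whole chromosomes, the background ratios were not computed.

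The widest peak found in the knockout list alone covered n-TRtct2, an arginine gene on chromosome 3 (122292948 to 122293032), with 1310 bp (122292922 to 122294231), listed 4 times, at 7677 bp from the nearest coding gene end and 15244 bp from the nearest control peak. Next came n-TVcac9 (valine, sequence above) and n-TRacg5 (arginine) on chromosome 13, in the windows of a peak of 773 bp (23445577 to 23446349), listed 3 times. On chromosome 10, n-TFgaa3 (phenylalanine) and n-TNgtt7 (asparagine) lay under a peak of 754 bp (80248969 to 80249722) close to Ndufs7, which encodes a subunit of respiratory complex I. They are 2 of the 4 knockout-only genes within 1 kb of a coding gene end.

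Other wide knockout peaks without a control partner lay at n-TAcgc8 with n-TGgcc8 in its flank on chromosome 2 (602 bp), at n-TLtag1 (572 bp) and n-TTagt9 (552 bp) on chromosome 7, beside n-TCgca19 on chromosome 6 (555 bp), beside n-TEctc7 on chromosome 1 (453 bp), at n-TGtcc7 with n-THgtg8 and n-TEctc13 in its flanks on chromosome 3 (435 bp), and beside n-TLtaa4 on chromosome 19 (433 bp). All of these except the peak at n-TEctc7 were listed 2 times. Few of these loci had a control peak just outside the window. Over the 54 genes the nearest control peak lay at a median of 22244 bp and at least 1195 bp away, and it was within 3 kb for 2 genes and within 5 kb for 3.

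The 6 genes in the control list alone rested on peaks of 227 to 514 bp. They were n-TGgcc3 (glycine, chromosome 1, peak of 514 bp overlapping the gene), n-TGtcc4 (glycine) and n-TDgtc6 (aspartate) in the windows of 1 peak of 470 bp on chromosome 1, n-TEttc6 (glutamate, chromosome 14, 448 bp), n-THgtg1 (histidine, chromosome 3, 336 bp) and n-TAagc8 (alanine, chromosome 4, 227 bp). Their nearest knockout peaks lay 1322 to 41421 bp away. Only the peaks at n-TGgcc3 and n-THgtg1 among these were listed 2 times.

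At the edge of the 1 kb window, the genes just inside had their nearest peak at 825 bp (n-TPtgg5), 848 bp (n-TLaag8), 880 bp (n-TDgtc4), 913 bp (n-TVcac7) and 950 bp (n-TEctc7). Just outside, the nearest peak lay at 1075 bp for n-TTagt1 and n-TWcca7, 1101 bp for n-TKctt16, 1367 bp for n-TQttg5 and 1423 bp for n-TYgta3.

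Joining neighbours up to 10 kb apart gave 174 clusters of tRNA genes, of which 110 held 1 gene, 42 held 2 to 4 and 22 held 5 or more. Peaks of both lists were found at 31 of the 110 lone genes (28.2%), at 23 of 104 genes in clusters of 2 to 4 (22.1%) and at 16 of 189 genes in large clusters (8.47%). Genes in the knockout list alone went the other way, with 9 lone genes (8.18%), 13 genes in small clusters (12.5%) and 32 genes in large clusters (16.9%). Most of these 32 genes lay in clusters on chromosomes 13 and 19, and the shares by cluster size were not computed without these chromosomes. Of the 70 genes in both lists, 30 lay within 1 kb of a coding gene end, most of them lone genes. A peak there can belong to the coding gene, and the shares by cluster size were not split by this distance. Taken by cluster, 5 of the 22 large ones had peaks of both lists, 8 were knockout-only, 1 was control-only and 8 had none. Genes of 1 isotype are often near-identical, and the sources used here do not say how the authors placed reads that match several copies, so a gene without a peak may be closed or may not have been measurable.

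The largest stretch of tRNA genes, on chromosome 13 from 21160785 to 23530419 (2.37 Mb), held 104 genes in 24 clusters. Only 2 of them were in both lists (n-TLcaa1 for leucine and n-TMcat9 for methionine, the latter 625 bp from the histone gene H4c8), while 21 were knockout-only, 0 control-only and 81 without a peak. In this stretch 18 knockout and 2 control peaks lay in tRNA windows, and 26 knockout and 13 control peaks lay in the stretch outside them. The knockout list had more peaks there at tRNA genes and elsewhere.

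Along this stretch, the large cluster starting at 21160785 held 9 genes, with n-TEctc11 and n-TFgaa4 in the knockout list alone, both with peaks of 190 bp and 150 bp in their windows. The cluster starting at 21234045 held 10 genes, with n-TQttg3 and n-TRtcg2 in the knockout list alone (peaks of 235 bp and 273 bp). Among the 15 genes from 21907111, n-TSaga5 and n-TQctg10 shared a peak of 424 bp and n-TStga2 had one of 384 bp, all in the knockout list alone. Of the 6 genes from 22015791, n-TIaat7 had a knockout peak of 318 bp. Of the 14 genes from 23425646, n-TYgta7 had a peak of 163 bp, n-TVcac9 and n-TRacg5 that of 773 bp and n-TLcag10 one of 224 bp. Of the 8 genes from 23517203, n-TGgcc6, n-TMcat6, n-TStga1 and n-TQttg4 shared 1 knockout peak of 272 bp. Most of these peaks were narrower than the knockout list's median of 352 bp.

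On chromosome 19, 8 tRNA genes between 12002236 and 12012338 made 1 cluster, and 7 of them were in the knockout list alone. They were n-TFgaa6 and n-TFgaa2 (phenylalanine), n-TKctt30 (lysine), n-TLtaa4 (leucine), n-TRtct1 (arginine), n-TVtac1 and n-TVtac2 (valine), and they shared 3 knockout peaks of 190, 406 and 433 bp. No control peak lay within 1 kb of any gene of this cluster. The remaining gene, n-TKctt29, was in neither list.

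Chromosome 1 held a stretch in which most tRNA genes had a peak and where genes of all 4 classes lay side by side. Between 171033942 and 171111515, 25 genes in 3 large clusters divided into 12 shared, 5 knockout-only, 2 control-only and 6 without a peak, through 9 knockout and 4 control peaks. In the middle cluster, 15 genes stood in the order glutamate, glycine, aspartate, leucine and glycine, and this order was repeated 3 times. The first repeat had peaks of both lists in the windows of all 5 genes, but only the body of n-TEctc5 met both. At its genes n-TLcag6 and n-TGgcc12 the peaks of the lists did not overlap each other. The second had none in either list within its genes. The third had n-TEctc7 in the knockout alone, n-TGtcc4 and n-TDgtc6 in the control alone and n-TLcag8 and n-TGgcc14 in both. The knockout peak at the last 2 genes was 205 bp wide and the control peak 470 bp. These peaks lay 859 bp apart and touched neither gene. The flanking clusters had 4 of 5 genes with a peak and 5 of 5, with n-TGgcc4 (648 bp and 608 bp) and the genes n-TLcag9, n-TDgtc5, n-TGtcc3 and n-TEctc6 (327 bp and 382 bp) in both lists, and n-TDgtc4, n-TGtcc2, n-TLcag3 and n-TVcac6 in the knockout alone.

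**Figure D3:**
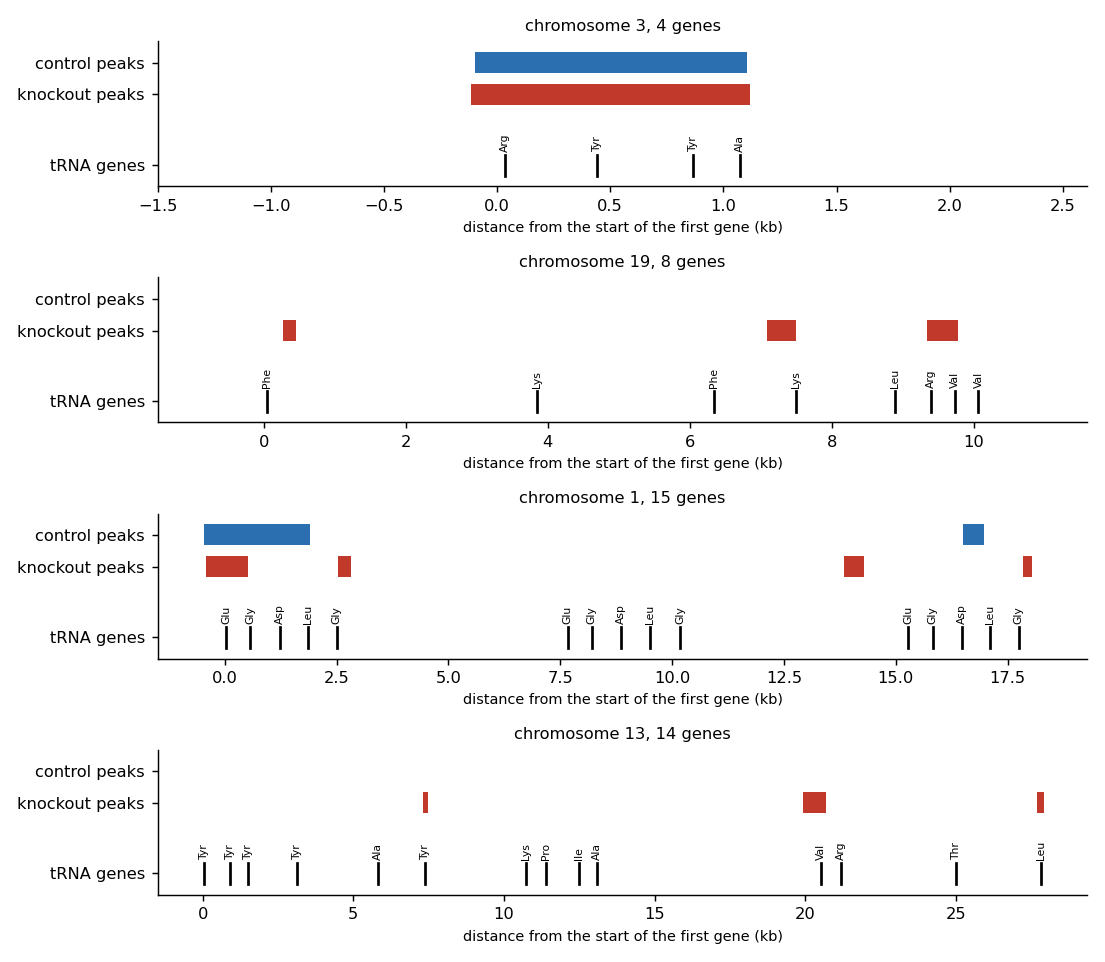
Maps of 4 tRNA gene clusters, with distance from the start of the first gene in kb on the horizontal axis, genes as black ticks named by amino acid, and the peaks lying in a tRNA window as bars for the knockout list (red) and the control list (blue). The 4 genes on chromosome 3 lie under 1 peak in each list (1230 bp and 1202 bp), the clusters on chromosomes 19 and 13 have 3 knockout peaks each and no control peak, and the repeated array on chromosome 1 has 4 knockout and 2 control peaks.

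Some stretches had few or no peaks at their tRNA genes. On chromosome 6, 49 cysteine genes between 47978997 and 48363603 had 1 gene with a peak, n-TCgca19 at the end of the array, in the knockout list alone, and the largest cluster of all, 22 cysteine genes, had none. Of 25 genes on chromosome 3 between 96322074 and 96501518, 3 were knockout-only, 1 control-only and 0 shared. Of 18 genes on chromosome 11 between 69037003 and 69125248, 3 lay at a knockout peak of 507 bp and a control peak of 378 bp (n-TPcgg3, n-TDgtc9 and n-TGtcc6), and 15 had none.

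On chromosome 14, by contrast, n-TLaag8, n-TPagg4 and n-TTtgt3 were in both lists, and n-TTtgt1, n-TYgta10 and n-TPtgg5, farther along the chromosome, were in the knockout list alone through 1 peak of 375 bp.

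The X chromosome, most of whose genes are silenced at pachytene within the XY body, carried 17 tRNA genes, 12 of them for alanine. A peak was found at 1 of the 17, a valine gene, in both lists. No alanine gene on X had a peak in either list.

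**Figure D4:**
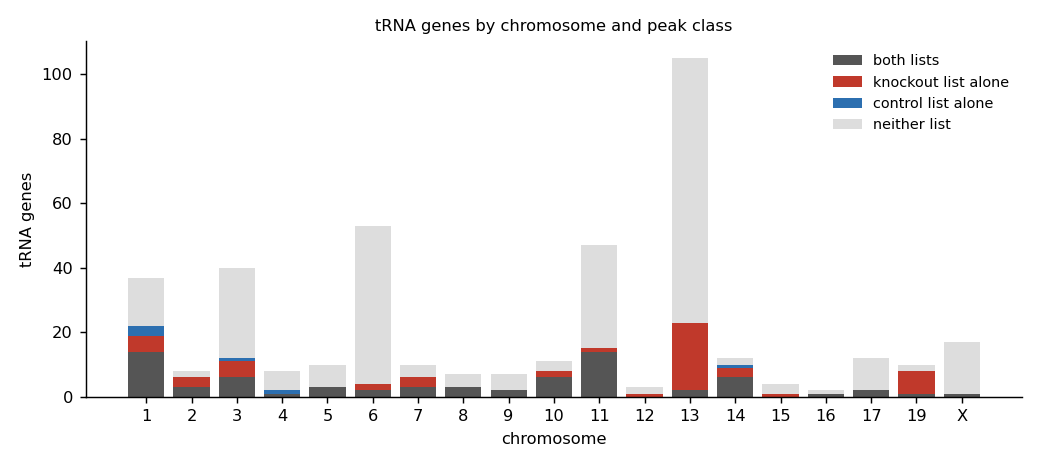
Number of tRNA genes (vertical axis) on each chromosome (horizontal axis), stacked by class: both lists (dark grey), knockout list alone (red), control list alone (blue) and neither (light grey). Chromosomes 13 and 19 hold 21 and 7 of the 54 genes in the knockout list alone, whereas chromosome 11 holds 14 genes in both lists and 1 in the knockout list alone.

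Every one of the 20 isotypes had a tRNA gene with a peak, and 19 had a gene in both lists. Of 48 anticodons, 43 had a gene with a peak and 36 a gene in both lists. The anticodons without one were TGC for alanine (11 genes), TTT for lysine, ATG for histidine, TAT for isoleucine and GGA for serine. Genes with a peak in either list made up 71.4% of phenylalanine genes (5 of 7), 56.0% of leucine genes (14 of 25), 55.0% of glutamate genes (11 of 20), 54.2% of arginine genes (13 of 24) and 53.6% of glycine genes (15 of 28). The lowest shares were 15.2% of alanine genes (5 of 33), 3.85% of lysine genes (1 of 26) and 3.51% of cysteine genes (2 of 57).

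Position and isotype overlap in these counts. Of the 57 cysteine genes, 49 stand in the chromosome 6 array, but of the 8 elsewhere only n-TCgca52 on chromosome 17 had a peak, in both lists. Alanine had 12 genes on X and 12 in the chromosome 13 stretch, all without a peak, so the 5 with a peak were among its remaining genes. The 1 lysine gene with a peak was n-TKctt30 of the chromosome 19 cluster. All 16 methionine genes carry the anticodon CAT, and the table does not tell initiator from elongator genes, nor does it name a selenocysteine gene.

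**Figure D5:**
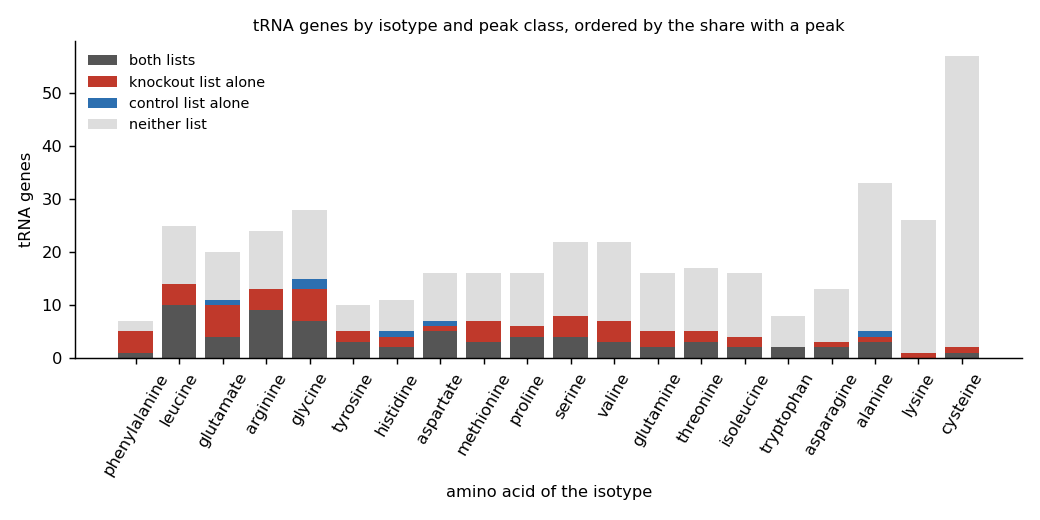
Number of tRNA genes (vertical axis) for each amino acid (horizontal axis), stacked by class as both lists, knockout list alone, control list alone and neither, and ordered by the share of genes with a peak. Phenylalanine leads with 5 of 7 genes and cysteine comes last with 2 of 57.

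The protein-coding genes that make and use tRNA were mostly in both lists. Of 107 such genes, 67 were shared, 16 knockout-only, 10 control-only and 14 without a peak, beside the 28.7%, 9.86% and 4.68% of all coding genes given above. Each pathway gene was classed by any peak within 1 kb of either of its ends, so peaks of a shared gene need not overlap. With intervals listed at least 2 times, 35 were shared, 22 knockout-only, 16 control-only and 34 without a peak. In the same order of classes, tRNA genes within 1 kb of a coding gene end were 30, 4 and 0 of 49. Those beyond 1 kb were 40, 50 and 6 of 354. Pathway genes were classed at coding gene ends by definition, so only the former set is alike in position.

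Among the 18 subunits of RNA polymerase III, 12 were in both lists. The largest subunit gene Polr3a (235 bp) and Polr3d (1013 bp) were knockout-only. Polr3gl (286 bp), an alternative form of a polymerase III subunit, Crcp (324 bp) and Polr2h (558 bp), a subunit shared by the nuclear polymerases, were control-only. Of the 18 initiation factors and regulators, 13 were in both, among them Gtf3c1 of TFIIIC (919 bp in the knockout, 1046 bp in the control), Brf1 of TFIIIB (1391 bp and 1402 bp) and the polymerase III repressor gene Maf1 (1185 bp and 370 bp). Gtf3a (706 bp), the factor for 5S rRNA genes, and Snapc4 (304 bp) and Snapc5 (437 bp), of the complex that serves snRNA genes, were knockout-only.

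Of 20 genes for tRNA end processing, splicing and export, 9 were in both lists. In the knockout list alone were Elac1 (503 bp), a tRNA 3' endonuclease, the RNase P subunits Pop4 (205 bp) and Rpp30 (858 bp), Tsen15 (579 bp) of the splicing endonuclease, Clp1 (555 bp) and the ligase Rtcb (261 bp), and in the control list alone was Pop5 (506 bp) of RNase P. Of 30 tRNA modification genes 18 were in both lists. Trmt1 (716 bp), a guanosine methyltransferase, Adat2 (488 bp), a subunit of the adenosine deaminase that edits the wobble base, and Elp3 (710 bp) of Elongator were in the knockout list alone, whereas Alkbh8 (228 bp), the pseudouridine synthase Pus1 (527 bp) and Trit1 (716 bp), an isopentenyltransferase, were in the control list alone. Of the 21 cytosolic aminoacyl-tRNA synthetases, which load tRNAs with amino acids, 15 were in both. Aars (526 bp) and Sars (390 bp), for alanine and serine, were in the knockout list alone, and Farsa (456 bp), Gars (867 bp) and Iars (524 bp), for phenylalanine, glycine and isoleucine, in the control list alone. The peak counted for Aars (111056137 to 111056662) lay outside the gene, which ends at 111055569, so it can belong to another gene.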

How the data were processed

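ATAC-seq peak lists of pachytene spermatocytes were analysed for 1 knockout and 1 control library of the 4 that the labels name; groups came from the genotype label, and the other two libraries were not analysed here. The authors deposited each list as 3 columns, the chromosome, start and end of a peak, with no header, score or fold. The build mm10 and the tools MACS2 2.2.4, Picard 2.20.7, Bowtie2 2.3.4.3 and cutadapt 2.5 are listed, without roles, per the submitters' processing notes. The sources used here do not give the peak threshold, any Tn5 shift, the handling of duplicate and multiply mapped reads, or whether a list was called on 1 library or on pooled replicates.

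From these lists, repeated lines were counted once and positions made 1-based. The windows of tRNA genes (1 kb to each side) and gene ends came from the RefSeq table of GRCm38.p6, which gives no strand. Isotype and anticodon were read from the gene symbol. Distance to coding genes was taken to the nearest start or end of a protein-coding gene, and clusters joined genes up to 10 kb apart. Python 3.11.15, numpy 2.4.6, pandas 2.3.3, scipy 1.17.1 and matplotlib 3.10.9 were used. Shares carry Wilson 95% intervals. With 1 list per genotype no test was run. Tested on planted intervals, 130 of 130 classes were recovered, and bedtools 2.31.1 gave the same class for 403 of 403 genes.

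Named were every cluster of at least 5 genes with a peak, the 10 widest distinct peaks per list, up to 15 genes per genotype-only class by peak width, the 5 genes nearest each side of the window edge, and all pathway genes in 1 list alone; any other name was picked with its value in view. The members, the gene lists and this rule were chosen with earlier results of these data known. Alternatives changed the window, the overlap, the listing and width of peaks, the cluster gap and the distance to coding genes.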

Additional observations from a re-analysis of the deposited data

How the results depend on the processing

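Of 102 alternative values, 70 stayed within 1.5 times the value given, upward or downward, and 32 did not. With the gene body in place of the 1 kb window, 40 tRNA genes were shared, 33 knockout-only and 10 control-only, and the shares were 18.1% and 12.4% for tRNA genes and 2.7% and 1.66% for other small RNA genes; with 3 kb the latter were 13.6% and 11.1%. Keeping intervals listed at least 2 times gave 33, 29 and 21 genes, 38 distinct knockout peaks, 15.4% of tRNA genes in the knockout list, 3.8% and 3.09% of other small RNA genes, and 35 pathway genes in both, 16 in the control alone and 34 in neither. Intervals of at least 300 bp gave 15 genes in the control alone. Outside coding genes and beyond 1 kb of their ends, 37 genes were in both lists. A cluster gap of 2 kb gave 267 clusters, 7 of them large, and one of 50 kb gave 14 large clusters and 14 clusters in the knockout alone. Taking coding gene ends within 2 kb left 27 genes in neither list, and within 5 kb gave 14 in the knockout alone and 52 in neither. Chosen after seeing the data, requiring a peak listed at least 2 times and no interval of the other list gave 25 and 2 genes in 1 list alone, and leaving out chromosome 13, or 13 and 19, gave 33 and 26 in the knockout alone. Some settings keep fewer peaks or genes, and others, such as the 3 kb window, take in more. The cause of these shifts was not tested. No paired analysis was possible because only the first library of each genotype has a peak list, and no library could be left out for the same reason. Neither the depth of the lists nor the reads behind any 1 peak is known, so a locus without a peak cannot be called closed.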

Other observations

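Other genes transcribed by RNA polymerase III were looked up after the values of the tRNA genes had been seen. Rn7sk, a snRNA that restrains transcription elongation by RNA polymerase II, overlapped a knockout peak of 929 bp and had a control peak of 674 bp in its flank, at 3188 bp from the nearest coding gene end. The RNA components of RNase MRP (Rmrp, 412 bp and 944 bp) and RNase P (Rpph1, 976 bp and 818 bp), both signal recognition particle RNA genes (Rn7s1, 1085 bp and 1103 bp; Rn7s2, 285 bp and 421 bp), the brain cytoplasmic RNA gene Bc1 (990 bp and 943 bp) and the vault RNA gene Vaultrc5 (217 bp and 441 bp) were also in both lists. The intervals at Vaultrc5 did not overlap each other, and Rmrp (281 bp), Rpph1 (126 bp), Rn7s1 (109 bp) and Bc1 (477 bp) lie within 1 kb of a coding gene end, where their peaks cannot be told from those of the coding gene. Among all coding genes 28.7% had a peak of both lists at an end. Of the 2 Y RNA genes, Rny3 was knockout-only, with a peak of 184 bp, and Rny1 had none. Rn4.5s had none in either list.

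None of the 69 5S rRNA genes in the table, 42 of them on chromosome 8, had a peak in either list within 1 kb. These copies are near-identical repeats, and the sources used here do not say how reads matching several copies were treated.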
